A study of Sus scrofa with 12 samples.

Results

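Interferon-response genes were followed in the ventral annulus fibrosus, the fibrous outer ring of the intervertebral disc, of pigs whose spines were loaded by hand. The group was chosen by symbol: 36 textbook targets and transcription factors of interferon, of which 27 had a gene in the deposited table of 22198 genes and 24 carried enough reads to be tested, each of them in both groups of libraries. By role, 16 of the 27 were antiviral targets of type I interferon, 7 were targets of interferon gamma and 4 were transcription factors. ISG15, IFIT3, OAS1, IFI6, DDX58, IFIH1, BST2, PSMB10 and IRF8 matched no gene of the table by symbol and were not analysed here, although DDX58 is an older symbol of RIGI, which is described below among the sensors. OASL, GBP1 and PSMB8 were present but fell under the count minimum.

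All pigs were domestic Duroc crosses of mixed sex, 3 to 4 months old, kept under isoflurane anesthesia for 4 h, so every group shared the anesthesia. The 6 Non-loaded Control pigs received no load. On the 4 Hyperloaded pigs, a load of 400 N was applied by hand to the third lumbar vertebra every 1 or 2 min over 4 h, and the tissue was taken directly afterwards from the disc below that vertebra. Sequencing covered 6 Control libraries, 1 per pig, and 6 Hyperloaded libraries, so that some Hyperloaded libraries came from the same pig as another. The labels used here do not say which libraries share a pig or an interval, and p-values are too small to that extent. Totals were 12519458 to 24897110 counts (median 20558719.5) in Control libraries and 12484228 to 19298415 counts (median 15511353) in Hyperloaded libraries. Some libraries stood apart. Hyperloaded replicates 2, 3 and 6 carried skeletal muscle transcripts, and Control replicate 6 and Hyperloaded replicates 1 and 3 have no deposited raw data. Counts of members are therefore also given without Hyperloaded replicates 2, 3 and 6, and without the libraries that lack raw data where that moved a count by more than 1.5 times.

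Interferons are cytokines that alert cells to infection or injury. Type I interferons bind a receptor whose kinases JAK1 and TYK2 activate STAT2, which joins IRF9 in a complex that binds the interferon-stimulated response element (ISRE) before antiviral genes such as the IFIT, MX and OAS families. Interferon gamma uses another receptor with JAK1 and JAK2 and acts through the gamma-activated site (GAS) before genes such as IRF1. IRF1 in turn promotes genes of antigen processing, among them the immunoproteasome subunits PSMB8 and PSMB9 and the proteasome activator subunits PSME1 and PSME2. IRF1 is also a target of NF-kappa-B, so that it is not a marker of interferon alone.

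The sequence upstream of a member can be read against these elements. The 250 bases before the RefSeq gene start on Sscrofa11.1 were searched on both strands for the letters GAAANNGAAA (ISRE) and TTCNNNGAA (GAS), and 26 of the 27 genes had a RefSeq entry by symbol. IFIT5 had none. A match is only a description of the letters in that window. The windows of 3 genes that rose and of 2 that did not pass the test are shown because they hold a GAS, an ISRE or overlapping ISREs, with the matched letters in capitals. They lie on Sscrofa11.1 at chr2:134783647-134783896 (IRF1, minus strand), chr7:75139642-75139891 (IRF9, minus strand), chr6:134679213-134679462 (IFI44L, minus strand), chr7:25071883-25072132 (PSMB9, plus strand) and chr3:128897810-128898059 (RSAD2, minus strand).
IRF1: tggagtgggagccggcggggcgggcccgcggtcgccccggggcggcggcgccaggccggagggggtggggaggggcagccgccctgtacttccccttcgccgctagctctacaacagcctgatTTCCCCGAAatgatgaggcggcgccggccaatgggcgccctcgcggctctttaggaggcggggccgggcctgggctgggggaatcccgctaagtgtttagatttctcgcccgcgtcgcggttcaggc
IRF9: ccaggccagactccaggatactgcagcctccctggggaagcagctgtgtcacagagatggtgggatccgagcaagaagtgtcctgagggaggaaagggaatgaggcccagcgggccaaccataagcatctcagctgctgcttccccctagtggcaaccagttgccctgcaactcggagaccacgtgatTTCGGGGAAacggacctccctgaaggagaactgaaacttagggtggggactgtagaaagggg
IFI44L: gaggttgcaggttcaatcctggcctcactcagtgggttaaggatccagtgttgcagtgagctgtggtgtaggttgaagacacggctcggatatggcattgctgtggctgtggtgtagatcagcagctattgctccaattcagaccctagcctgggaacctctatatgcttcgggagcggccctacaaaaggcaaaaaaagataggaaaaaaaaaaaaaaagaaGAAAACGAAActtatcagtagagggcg
PSMB9: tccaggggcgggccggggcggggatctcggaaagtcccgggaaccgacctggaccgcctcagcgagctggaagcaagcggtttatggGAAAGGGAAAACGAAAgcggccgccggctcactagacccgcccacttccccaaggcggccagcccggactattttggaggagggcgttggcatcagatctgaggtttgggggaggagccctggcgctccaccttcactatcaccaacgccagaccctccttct
RSAD2: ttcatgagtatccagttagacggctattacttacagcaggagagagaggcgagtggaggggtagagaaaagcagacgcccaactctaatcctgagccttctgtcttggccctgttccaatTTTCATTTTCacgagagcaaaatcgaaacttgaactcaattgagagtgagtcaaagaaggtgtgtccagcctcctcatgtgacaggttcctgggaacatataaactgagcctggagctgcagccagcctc
In IRF1, which encodes the factor that carries part of the gamma response, the GAS lay 127 to 119 bases before the start. The GAS of IRF9 lay 62 to 54 bases before the start. IFI44L held an ISRE 27 to 18 bases before the start, and RSAD2, which encodes the antiviral protein viperin, held 1 at 130 to 121 bases. The 2 ISRE matches of PSMB9 overlapped, at 163 to 154 and 157 to 148 bases before the start, so that they share bases.

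An ISRE stood in the windows of 7 of the 26 genes (26.9%), beside 3.01% of the windows of 19559 protein-coding genes, and 6 of these 7 were type I targets (6 of 15, 40.0%). The remaining one was PSMB9. A GAS stood in 2 of the 26 windows (7.69%), beside 6.11% of all windows. The windows that held an ISRE belonged to IFI44L, HERC5, OAS2, OASL, PSMB9, RSAD2 and USP18. Of these genes, IFI44L alone passed the test described next. IRF1 and IRF9, the genes with a GAS, passed it too, but the share of members with a GAS was near that of all windows. PSME1 and IRF7 also passed it with neither element in their windows, and IFIT5 passed it without a window to read. Whether a match went with a rise was not tested.

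**Figure D1:**
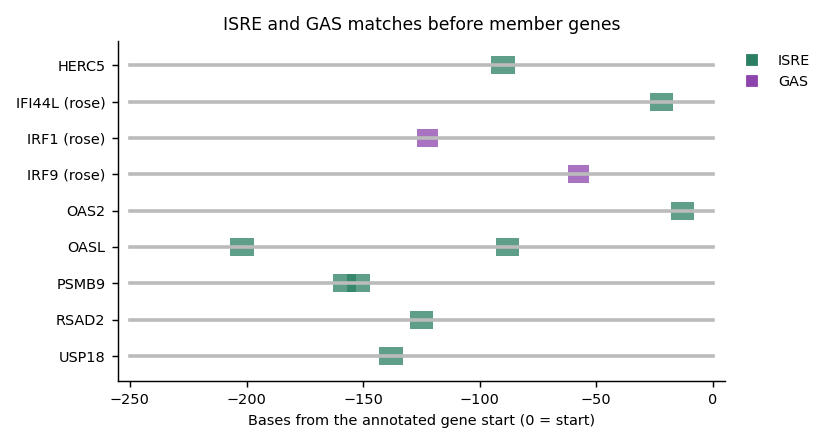
Positions of ISRE (green) and GAS (purple) matches in the 250 bases before the annotated start of the 9 member genes that hold one, in bases from the start. The GAS matches lie before IRF1 and IRF9, and the ISRE matches lie before 7 other genes, among which IFI44L rose.

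Hyperloading was compared with no load to ask which of these genes differed directly after the loading. Of the 24 members tested, 6 rose (25.0%) and 0 fell at an adjusted p under 0.05, where 10.8% of all 12597 tested genes rose and 8.45% fell (19.3% in either direction). The genes that rose were IRF1, IRF7, IRF9, IFI44L, IFIT5 and PSME1. They were 2 of 15 type I targets, 2 of 5 gamma targets and 2 of 4 transcription factors, and whether these shares differ was not tested. All adjusted p-values are those of edgeR's quasi-likelihood test, adjusted by the Benjamini-Hochberg method across every gene tested, fold-changes are Hyperloaded over Control, and levels are CPM, read counts scaled to the library total and then by TMM factors. At an unadjusted p under 0.05, 8 of the 24 were higher and 0 lower, beside 19.2% of all tested genes higher and 17.3% lower. DESeq2 and limma voom each called 8 members higher and 0 lower at an adjusted p under 0.05, beside 14.9% and 14.5% of all tested genes higher. The median log2 fold-change was 0.36 over the 24 members, beside 0.005 over all tested genes, with 0.40 for type I targets, -0.01 for gamma targets and 0.45 for transcription factors. Without Hyperloaded replicates 2, 3 and 6, 2 of 24 members rose, IRF1 and IFIT5, where 1.0% of all genes rose. Without Control replicate 6 and Hyperloaded replicates 1 and 3, 4 of 15 type I targets rose, with HERC6 and IFI44 beside IFIT5 and IFI44L, where 7.77% of all genes rose. Leaving out 1 library at a time gave 2 to 9 members, with 2 when Control replicate 2, 3 or 4 or Hyperloaded replicate 6 was left out, 3 without Control replicate 1 or Hyperloaded replicate 4, and 9 without Hyperloaded replicate 1. The share of all genes that rose moved with these counts, from 5.74% without Control replicate 2 and 6.44% without Hyperloaded replicate 6 to 11.9% without Hyperloaded replicate 1.

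**Figure D2:**
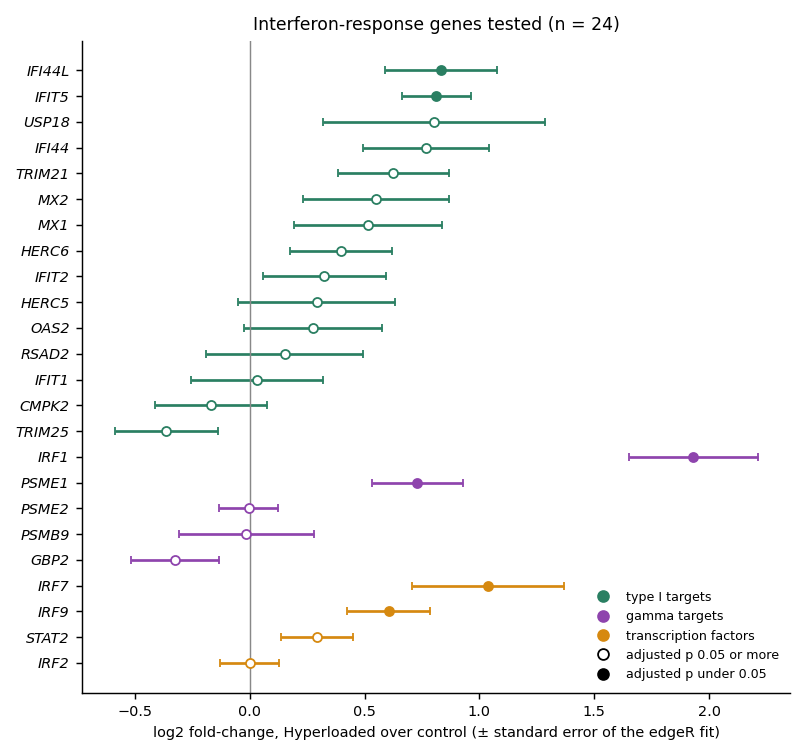
Log2 fold-change (Hyperloaded over Control) of the 24 tested members with the standard error of the edgeR fit, coloured by role, with filled points for an adjusted p under 0.05. IRF1 stands at 1.93, the other members that rose lie between 0.60 and 1.04, and PSME2, PSMB9 and IRF2 lie at or within 0.02 of 0.

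Among gamma targets, IRF1 (ENSSSCG00000014277, chromosome 2, 134776122 to 134783646) rose most. Control libraries ranged from 9.52 to 16.9 CPM with a median of 13.5, and Hyperloaded libraries ranged from 25.9 to 85.3 CPM with a median of 45.3. Every Hyperloaded library thus lay above every Control library, with Hyperloaded replicates 3 and 1 highest at 85.3 and 76.0 CPM and replicate 5 lowest. IRF1 rose 3.82-fold, a log2 fold-change of 1.93 with a standard error (SE) of 0.28 and an adjusted p of 0.00397 in edgeR. The call held without Hyperloaded replicates 2, 3 and 6 (log2 fold-change 1.88, adjusted p 0.0205) and in each of the 12 fits that left out 1 library.

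IRF2 encodes a factor that competes with IRF1 for the same sites. Its levels were 16.4 to 22.5 CPM (median 18.8) in Control and 15.0 to 22.9 CPM (median 19.8) in Hyperloaded libraries, which overlapped fully (adjusted p 0.998, SE 0.13 on the log2 scale). The ratio of the IRF1 to the IRF2 count within a library does not depend on scaling between libraries. Its log2 value was -0.50 ± 0.34 (SD, n = 6) in Control and 1.33 ± 0.74 (SD, n = 6) in Hyperloaded libraries. The groups did not overlap, since Control values ran from -0.96 to -0.10 and Hyperloaded values from 0.58 to 2.50. The difference was 1.83 on the log2 scale (2-sided exact permutation p = 0.00216, the smallest that 6 against 6 allows, and 0.00433 after adjustment over the 2 ratios tested). IRF1 was thus below IRF2 in counts in all 6 Control libraries and above it in all 6 Hyperloaded libraries, a comparison of counts that takes no account of transcript length. The permutation test and the SDs took the 6 Hyperloaded libraries as independent, although they came from 4 pigs.

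PSME1 and PSME2 encode the alpha and beta subunits of the activator ring that caps the proteasome under interferon gamma, and the genes are 3958 bases apart on chromosome 7. PSME1 (ENSSSCG00000002006, 75161830 to 75164531) was at 12.2 to 25.2 CPM (median 18.1) in Control and 18.3 to 41.4 CPM (median 30.9) in Hyperloaded libraries. Hyperloaded replicate 5, at 18.3 CPM, lay within the Control range, and the other 5 Hyperloaded libraries lay above every Control library. PSME1 rose by 0.73 on the log2 scale (SE 0.20, adjusted p 0.0257 in edgeR). That call was lost without Control replicate 2 (adjusted p 0.0548), Control replicate 3 (0.0525), Control replicate 4 (0.0565) or Hyperloaded replicate 6 (0.0619), and without Hyperloaded replicates 2, 3 and 6 together (0.50 on the log2 scale, adjusted p 0.222).

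PSME2 was at 10.6 to 16.2 CPM (median 13.4) in Control and 11.4 to 16.9 CPM (median 12.7) in Hyperloaded libraries, with a log2 fold-change of -0.01 (SE 0.13, adjusted p 0.981). Within a library, the log2 ratio of PSME1 to PSME2 counts was 0.43 ± 0.28 (SD, n = 6) in Control and 1.15 ± 0.29 (SD, n = 6) in Hyperloaded libraries. This pair was singled out after its values were seen and carries no test. Against PSME3, which encodes the activator of another, nuclear form of the proteasome, the planned ratio of PSME1 was 0.59 ± 0.39 in Control and 1.00 ± 0.51 in Hyperloaded libraries, with a difference of 0.41 on the log2 scale (2-sided exact permutation p = 0.145).

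The immunoproteasome subunits were low. PSMB9 was at 0.864 to 2.45 CPM in Control and 1.10 to 2.33 CPM in Hyperloaded libraries, with a log2 fold-change of -0.02 (SE 0.29, adjusted p 0.976). PSMB8 had no reads in most libraries, reached 1.92 CPM in Control replicate 6 and 2.46 CPM in Hyperloaded replicate 6, and had at most 54 counts in a library. Both genes lie in the major histocompatibility complex on chromosome 7, where similar genes and alleles can draw reads from each other, so that their levels are uncertain. Of the guanylate-binding proteins, GTPases that act against pathogens inside cells, GBP2 was at 9.34 to 14.0 CPM in Control and 4.82 to 11.8 CPM in Hyperloaded libraries (log2 fold-change -0.33, SE 0.19, adjusted p 0.229), and GBP1 stayed under 1 CPM.

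**Figure D3:**
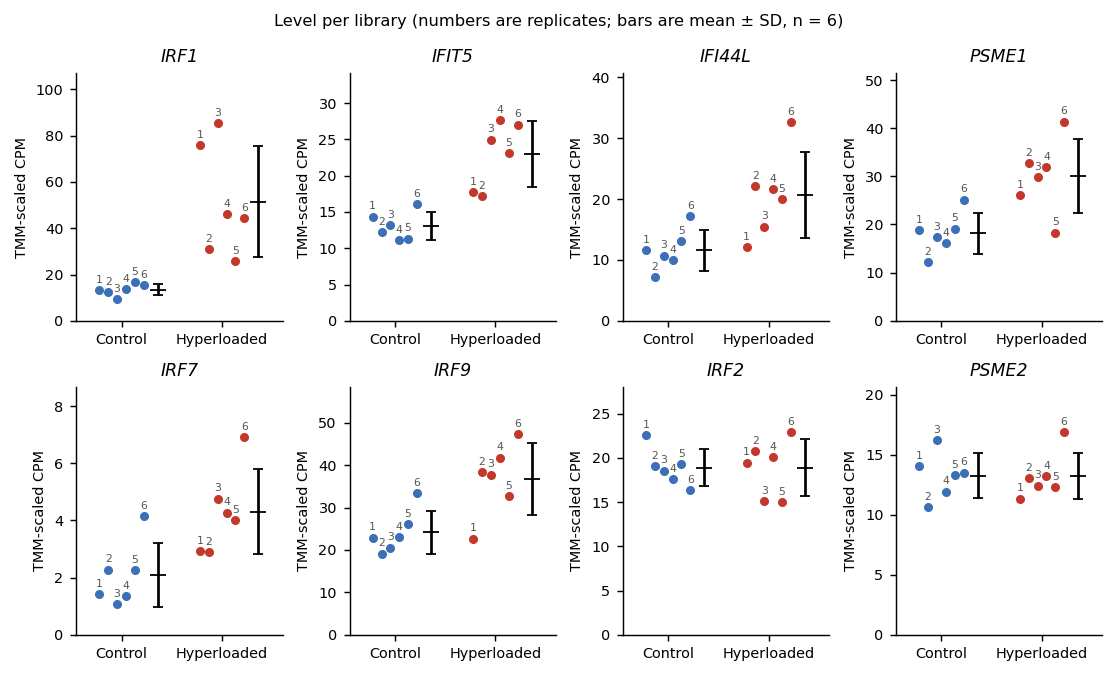
TMM-scaled CPM of 8 members in each library, Control in blue and Hyperloaded in red, numbered by replicate, with the mean and SD (n = 6) beside the points. IRF1 and IFIT5 show no overlap between groups, PSME1, IRF7, IRF9 and IFI44L overlap by 1 or more libraries, and IRF2 and PSME2 overlap throughout.

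Among type I targets, IFIT5 (ENSSSCG00000010454), which encodes a protein that binds viral RNA ends in human cells, separated the groups. Control libraries ranged from 11.1 to 16.0 CPM with a median of 12.7, and Hyperloaded libraries from 17.2 to 27.6 CPM with a median of 24.0. No library of either group lay within the range of the other, as was so for IRF1 and for 3.81% of all tested genes in that direction. The reverse order, with every Hyperloaded library below every Control library, held for none of the members and for 2.98% of all tested genes. IFIT5 rose 1.76-fold (log2 fold-change 0.81, SE 0.15, adjusted p 0.00726 in edgeR). The call held in each of the 12 fits that left out 1 library, and without Hyperloaded replicates 2, 3 and 6 (log2 fold-change 0.81, adjusted p 0.0495).

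The related genes IFIT1 and IFIT2, which encode RNA-binding antiviral proteins, had log2 fold-changes of 0.03 (SE 0.29, adjusted p 0.95) and 0.32 (SE 0.27, adjusted p 0.398). IFIT1 was at 2.07 to 4.70 CPM in Control and 1.55 to 6.15 CPM in Hyperloaded libraries, and IFIT2 was at 3.93 to 6.76 and 3.76 to 12.4 CPM. The sign of IFIT1 changed with the scaling of the libraries, to -0.04 with upper quartile factors. Whether IFIT5 differed from its relatives in its change was not tested.

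IFI44L (ENSSSCG00000027660, chromosome 6, 134660230 to 134679212), an interferon-induced gene of little known function, was at 7.17 to 17.2 CPM (median 11.2) in Control and 12.1 to 32.6 CPM (median 20.8) in Hyperloaded libraries. Hyperloaded replicates 1 and 3, at 12.1 and 15.5 CPM, lay within the Control range. IFI44L rose by 0.83 on the log2 scale (SE 0.24, adjusted p 0.0335 in edgeR). Its neighbour IFI44, 10372 bases away, was at 5.41 to 14.5 CPM in Control and 8.84 to 22.6 CPM in Hyperloaded libraries, with a log2 fold-change of 0.77 (SE 0.27) and an adjusted p of 0.0647, and it passed the test without Control replicate 6 (0.95, adjusted p 0.0318) or Hyperloaded replicate 1 (0.89, adjusted p 0.0338). IFI44L and IFI44 stayed at nearly one ratio to each other, with a log2 ratio of 0.37 ± 0.22 (SD, n = 6) in Control and 0.41 ± 0.26 (SD, n = 6) in Hyperloaded libraries, and this pair too was singled out after its values were seen. The call for IFI44L was lost without any of Control replicates 1 to 4 or Hyperloaded replicates 2, 4 or 6, with adjusted p-values up to 0.0801 and log2 fold-changes of 0.65 to 0.83 there, and without Hyperloaded replicates 2, 3 and 6 together (0.63, adjusted p 0.192).

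MX1 and HERC6 did not pass the test with all libraries. MX1, which encodes an antiviral GTPase, was at 11.6 to 33.9 CPM (median 20.4) in Control and 16.7 to 51.2 CPM (median 27.4) in Hyperloaded libraries (log2 fold-change 0.52, SE 0.32, adjusted p 0.264). Its neighbour MX2 had a log2 fold-change of 0.55 (SE 0.32, adjusted p 0.225). HERC6, which encodes an ISG15 ligase in mouse, was at 13.2 to 25.8 CPM (median 17.1) in Control and 11.8 to 31.0 CPM (median 23.7) in Hyperloaded libraries (log2 fold-change 0.40, SE 0.22, adjusted p 0.207), and it passed the test without Hyperloaded replicate 1 (0.53, adjusted p 0.0479). For all of these the ranges of the groups overlapped.

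Of the other type I targets, USP18, which encodes a brake on the type I receptor, showed the effect of a single library. Control libraries had a median of 5.75 CPM but reached 24.1 CPM in Control replicate 5, and Hyperloaded libraries were at 10.6 to 18.2 CPM. The log2 fold-change was 0.80 (SE 0.48, adjusted p 0.244) with that library and 1.45 (adjusted p 0.0234) without it. TRIM21, which encodes a cytosolic antibody receptor, had a log2 fold-change of 0.62 (SE 0.24, adjusted p 0.0827), and it passed the test without Hyperloaded replicate 1 (0.77, adjusted p 0.019) or Hyperloaded replicate 5 (0.71, adjusted p 0.0465). OAS2 (0.28), HERC5 (0.29) and RSAD2 (0.15) had positive log2 fold-changes that did not pass the test. CMPK2 (-0.17), a neighbour of RSAD2, and TRIM25 (-0.36) had negative ones that did not pass it. OASL had at most 2 counts in a library.

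Among the transcription factors, IRF9, which gives the type I complex its DNA binding, and IRF7, which drives the transcription of type I interferons, rose. IRF9 (ENSSSCG00000002002, chromosome 7, 75133800 to 75139641) was at 19.2 to 33.4 CPM (median 23.0) in Control and 22.7 to 47.3 CPM (median 38.1) in Hyperloaded libraries. Hyperloaded replicate 1, at 22.7 CPM, lay below the Control median, and Hyperloaded replicate 5, at 32.7 CPM, lay below Control replicate 6. IRF9 rose by 0.60 on the log2 scale (SE 0.18, adjusted p 0.0351 in edgeR). IRF9 lies 14928 bases from PSME2, whose own log2 fold-change was -0.01.

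IRF7 (ENSSSCG00000012853, chromosome 2, 372235 to 375572) was at 1.08 to 4.15 CPM (median 1.85) in Control and 2.88 to 6.92 CPM (median 4.15) in Hyperloaded libraries. Control replicate 6 again lay among the Hyperloaded libraries. IRF7 rose by 1.04 on the log2 scale (SE 0.33, adjusted p 0.0448 in edgeR), just inside the threshold, and missed it with upper quartile factors (adjusted p 0.0544) and with no count minimum (adjusted p 0.0599). STAT2, the partner of IRF9 in the type I complex, was at 14.0 to 24.0 CPM (median 19.8) in Control and 18.2 to 30.0 CPM (median 24.3) in Hyperloaded libraries (log2 fold-change 0.29, SE 0.16, adjusted p 0.192). The calls for IRF9 and IRF7 were each kept in 4 of the 12 fits that left out 1 library. That for IRF9 was lost without any of Control replicates 1 to 4 or Hyperloaded replicates 2, 3, 4 or 6 (0.52 to 0.60 on the log2 scale, adjusted p up to 0.0831), and that for IRF7 without any of Control replicates 1 to 5 or Hyperloaded replicates 3, 4 or 6 (0.84 to 1.07, adjusted p up to 0.108). Without Hyperloaded replicates 2, 3 and 6 together, the adjusted p was 0.268 for IRF9 and 0.235 for IRF7.

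The libraries of 1 group also differed among themselves in a way that many members shared. Control replicate 6 was the highest Control library for 15 of the 24 members, beside 15.5% of all tested genes, and Control replicate 2 was the lowest for 13, beside 12.1%. Hyperloaded replicate 6 was the highest of its group for 14 members, beside 10.2% of all genes, and Hyperloaded replicate 1 was the lowest for 13, beside 16.1%. IRF1 went against this in Hyperloaded replicate 1, where it was the second highest of its group. Most of these libraries were also extreme in cartilage markers, described below. The mean log2 CPM of 8 such markers was lowest of its group in Control replicate 6 (11.41) and Hyperloaded replicate 6 (7.26). It was highest of its group in Hyperloaded replicate 1 (11.67). Control replicate 2, at 12.55, lay below Control replicate 4 and was not extreme. Whether the members followed the tissue in a library was not tested. The mean log2 CPM of the 15 type I targets was 2.91 ± 0.36 (SD, n = 6) in Control and 3.33 ± 0.35 in Hyperloaded libraries, that of the 5 gamma targets was 3.17 ± 0.17 and 3.61 ± 0.22, and that of the 4 transcription factors was 3.52 ± 0.24 and 4.01 ± 0.28. The groups overlapped in each of the 3 means. Among the 5 gamma targets only IRF1 and PSME1 had positive log2 fold-changes, of 1.93 and 0.73. GBP2, PSMB9 and PSME2 were at -0.33, -0.02 and -0.01.

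**Figure D4:**
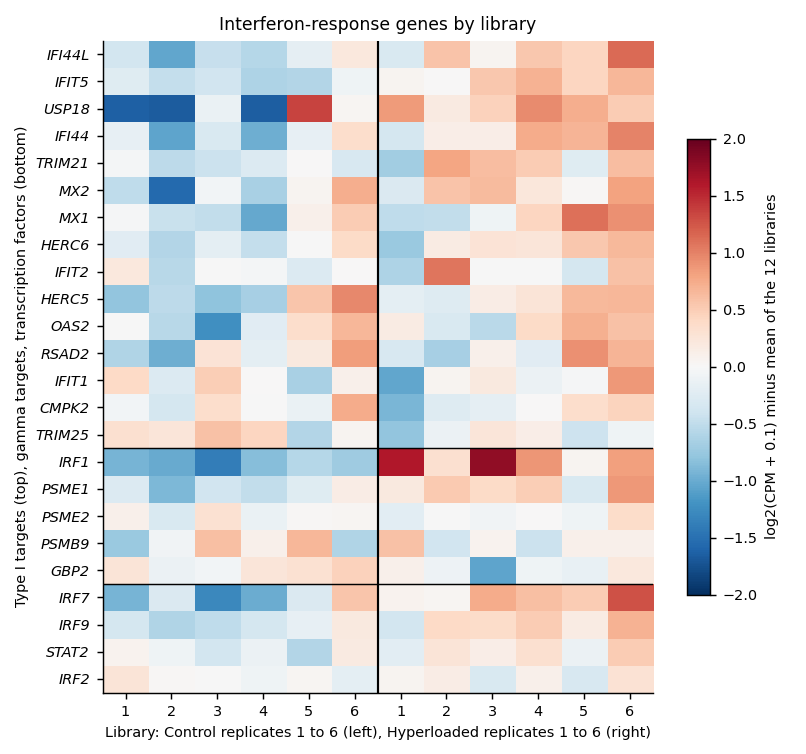
Level of each tested member (lines) in each library (columns), as log2(CPM + 0.1) minus the mean of the 12 libraries, with red above and blue below that mean and Control on the left of the vertical line. IRF1 is the line with the clearest break between groups, and Control replicate 6 and Hyperloaded replicate 6 are the reddest columns of their groups across the type I targets.

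The other genes of the pathway were read from lists chosen by role. Of the 46 tested over these lists, 7 rose and 5 fell, beside 10.8% of all tested genes that rose and 8.45% that fell. Of the 6 interferon genes listed, 3 had a gene in the table, and IFNB1, IFNE and IFNK stayed at or near 0, with at most 3 counts in a library. IFNG, the gene of interferon gamma, was not among these 3, so its messenger was not read. One interferon delta gene outside that list (ENSSSCG00000005152) was named after its values were seen, and sources differ on which member of the delta family it is. It was at 1.73 to 3.49 CPM in Control and 0.794 to 1.89 CPM in Hyperloaded libraries and fell by 1.12 on the log2 scale (SE 0.26, adjusted p 0.0146). The messengers of IFNB1, IFNE and IFNK were thus not detectable above single counts at this depth, and interferon protein was not measured.

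Of 4 receptors and kinases tested, 2 rose and 0 fell. IFNGR1, the ligand-binding chain of the gamma receptor, was at 14.9 to 24.3 CPM in Control and 18.5 to 51.1 CPM in Hyperloaded libraries and rose by 0.89 on the log2 scale (SE 0.21, adjusted p 0.016). JAK1, the kinase that both receptors use, was at 12.3 to 17.2 and 18.8 to 37.3 CPM, with no overlap, and rose by 0.81 (SE 0.17, adjusted p 0.0105). TYK2 and JAK2, with log2 fold-changes of -0.24 and 0.30, did not pass the test.

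Of 6 negative regulators tested, 1 rose and 2 fell. SOCS1, an inhibitor of the JAK kinases that interferon itself induces, was at 0.789 to 2.59 CPM in Control and 1.49 to 6.03 CPM in Hyperloaded libraries and rose by 1.22 on the log2 scale (SE 0.35, adjusted p 0.0304). PIAS3 and PIAS4, SUMO ligases that restrain STAT factors, fell by 0.66 (SE 0.15, adjusted p 0.015) and by 0.37 (SE 0.12, adjusted p 0.0442) on the log2 scale.

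Of 10 sensors and adaptors tested, 1 rose and 2 fell. IKBKE, a kinase that activates IRF3 and IRF7, was at 4.71 to 8.26 CPM in Control and 2.78 to 4.62 CPM in Hyperloaded libraries, with no overlap, and fell by 0.84 on the log2 scale (SE 0.18, adjusted p 0.0123). CGAS, the sensor of cytosolic DNA, fell by 0.49 (SE 0.16, adjusted p 0.0489). IRF5, a factor found mainly in myeloid and B cells, was at 0.676 to 9.28 CPM in Control and 8.96 to 15.0 CPM in Hyperloaded libraries and rose by 1.63 (SE 0.45, adjusted p 0.028). RIGI, the sensor of viral RNA, had a log2 fold-change of 0.69 (SE 0.31, adjusted p 0.125).

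Of 14 further type I targets tested, 2 rose and 0 fell, both with no overlap between groups. SAMHD1, which depletes the nucleotides that retroviruses need, was at 4.62 to 11.3 CPM in Control and 12.3 to 39.7 CPM in Hyperloaded libraries and rose by 1.58 on the log2 scale (SE 0.30, adjusted p 0.00751). NMI, an interactor of STAT factors, was at 3.29 to 5.58 and 6.42 to 10.7 CPM and rose by 0.84 (SE 0.17, adjusted p 0.0103). Of 5 further gamma targets tested, 1 rose and 1 fell. ICAM1, the leukocyte adhesion molecule, which NF-kappa-B also induces, was at 9.70 to 24.2 CPM in Control and 26.1 to 76.1 CPM in Hyperloaded libraries, with no overlap, and rose by 1.68 (SE 0.27, adjusted p 0.00539). CIITA, the master coactivator of class II histocompatibility genes, fell by 0.94 (SE 0.31, adjusted p 0.0494). Of 7 other proteasome genes tested, among them the activators PSME3 and PSME4, 0 passed in either direction with edgeR, DESeq2 or limma voom. At an unadjusted p under 0.05 in edgeR, 4 were higher and 0 lower, beside 19.2% of all tested genes higher and 17.3% lower. Those with the smallest p, PSMA3 and PSMA1, had log2 fold-changes of 0.54 (SE 0.21, adjusted p 0.0843) and 0.43 (SE 0.18, adjusted p 0.105). Without Hyperloaded replicates 2, 3 and 6, 0 of these 46 pathway genes passed the test in edgeR. At an unadjusted p under 0.05 in that fit, 7 were higher and 4 lower, beside 11.9% of all tested genes higher and 10.8% lower. Without Control replicate 6 and Hyperloaded replicates 1 and 3, where 7.77% of all genes rose, the negative regulators gave 0 rises and 1 fall, of PIAS3. In the same fit, the sensors gave rises of RIGI and TLR3 and a fall of IKBKE.

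Markers of other cell types differed between the groups. Fewer or more cells of a type cannot be told apart from less or more RNA per cell in bulk tissue. The tissue that each sample held was not measured apart from these markers. Of 13 macrophage and monocyte markers tested, 10 rose and 0 fell (median log2 fold-change 1.93), beside 10.8% of all tested genes that rose and 8.45% that fell. Their summed level was 35.4 to 202 CPM in Control and 205 to 373 CPM in Hyperloaded libraries, and no Hyperloaded library lay below a Control library. CSF1R, the receptor of the macrophage growth factor, was at 1.24 to 25.7 CPM in Control and 27.4 to 75.2 CPM in Hyperloaded libraries. Of the 18 macrophage markers listed, 14 had a gene in the table, of which CSF3R was at 0 in at least 1 Control library and the others had reads in every library. Lymphocyte markers were low. CD3D, a chain of the T cell receptor complex, stayed under 1 CPM in every library. The summed level of 10 genes listed for T and NK cells, GZMA being held by a pair of identifiers, was 2.99 to 15.2 CPM in Control and 12.8 to 16.7 CPM in Hyperloaded libraries. Of the 3 tested, 2 rose with no overlap between groups. NKG7 was at 0.471 to 3.38 CPM in Control and 3.87 to 7.74 CPM in Hyperloaded libraries (log2 fold-change 2.37, adjusted p 0.00766 in edgeR). CD247 rose by 1.95 on the log2 scale (adjusted p 0.0209 in edgeR). IL2RB did not pass the test (log2 fold-change -0.23) and reached 13.2 CPM in Control replicate 5. The 3 B cell markers summed to less than 1 CPM. Without Hyperloaded replicates 2, 3 and 6, 0 of the 13 macrophage markers passed the test in edgeR. In that fit 12 were higher at an unadjusted p under 0.05, beside 11.9% of all tested genes. Without Control replicate 6 and Hyperloaded replicates 1 and 3, 5 rose, where 7.77% of all genes rose. The part of these cells in the rise of IRF1, IFIT5 and the other members was not tested.

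Endothelial markers summed to 596 to 928 CPM in Control and 442 to 690 CPM in Hyperloaded libraries. Of the 7 tested, 4 fell in the edgeR fit, where 10.8% of all tested genes rose and 8.45% fell. Skeletal muscle markers summed to 7.04 to 153 CPM in Control and 24.1 to 31510 CPM in Hyperloaded libraries, and 5 of 5 rose. The muscle actin gene ACTA1 was at 20269, 533 and 2038 CPM in Hyperloaded replicates 2, 3 and 6. In Hyperloaded replicates 1, 4 and 5 it was at 9.68, 46.1 and 30.4 CPM, within the Control range of 0.282 to 85.5 CPM. Of the 8 cartilage markers tested, all had negative log2 fold-changes (median -1.82), and 2 fell in edgeR, 5 in DESeq2 and 7 in limma voom. At an unadjusted p under 0.05 in edgeR, 6 were lower and 0 higher, beside 17.3% of all tested genes lower and 19.2% higher. Their summed level ran from 135202 to 688006 CPM in Control and from 4644 to 163446 CPM in Hyperloaded libraries, and cartilage transcripts were present in every library. MATN3 fell under the count minimum. Of 5 markers of tendon and outer annulus tested, 3 rose and 0 fell. Without Hyperloaded replicates 2, 3 and 6, 1 endothelial marker fell (TIE1), and 0 muscle, 0 cartilage and 0 tendon markers passed the test in edgeR. At an unadjusted p under 0.05 in that fit, 5 endothelial markers were lower, 3 tendon markers higher and 1 cartilage marker lower. The shares of all tested genes there were 11.9% higher and 10.8% lower. IRF1 and IFIT5 kept their direction and their call in that fit, as given above. There 12 of 13 macrophage markers were also higher at an unadjusted p under 0.05. Whether the rise of IRF1 and IFIT5 followed the mix of cells was not tested.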

How the data were processed

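Messenger RNA was sequenced from 12 poly-A libraries of ventral annulus fibrosus, 6 Control and 6 Hyperloaded, grouped by their labels. The authors mapped reads to Sscrofa11.1, allowing 2 mismatches per read, and deposited their expected counts by gene without normalization. A read may be split between genes in such counts. The labels name CASAVA for base calling. The libraries do not mark strand, so overlapping genes cannot be told apart. The authors' own analysis used TPM, which is left aside here.

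Expected counts were rounded. A gene entered the test if each library of either group held 10 counts or more for it. The test was edgeR's quasi-likelihood F test (edgeR 4.0.16, R 4.3.3) after TMM scaling, without covariates, and a gene was called where its Benjamini-Hochberg adjusted p fell under 0.05. SE values were derived from F. Levels are CPM, and log2 CPM uses a prior count of 2. Ratios added 0.5 to each count. Symbols came from a table of names that matched 11700 of 22198 identifiers and belongs to a later annotation. Positions and sequences come from RefSeq (Sscrofa11.1) and were joined by symbol. The 30 pairs of libraries within groups differed by 29.6 to 754 in chi-square per gene, so none was a copy of another.

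The members and lists were chosen with earlier results of these data known. Levels are given for each member called, for IRF1, IFIT5 and PSME1, and for the 2 members of each role with the largest mean CPM. Other members are given by ranges and counts, and other pathway genes if called or among the 2 smallest p of their list. Replicates are separate libraries, and for some Hyperloaded libraries the p-values measure a spread that may be within a pig.

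The fit was tested on simulated counts for the Hyperloaded against Control comparison. It recovered 3 of 66 genes changed 1.5-fold, 34 of 66 changed 2-fold and 58 of 63 changed 4-fold, with 7 unchanged genes called among 12887, and with no change simulated it called 0 of 12877. The simulated libraries were drawn independently, whereas some Hyperloaded libraries share a pig, so these counts do not measure the error rate in the data. Alternatives were other scalings, count minimums and tools (DESeq2 1.42.0, limma 3.58.1), the replicate number as a term, and libraries left out. One listed pathway gene is not reported here.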

Additional observations from a re-analysis of the deposited data

Results flagged for a closer look

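Of 52 groups of 6 libraries examined for a library far from the others, 2 held one, and chance gives about 1 in 20 groups. HERC6 was at a log2 CPM of 3.57 in Hyperloaded replicate 1, where the nearest Hyperloaded library was at 4.48, a gap of 0.656 of the range. Without that library HERC6 passed the test (log2 fold-change 0.53, adjusted p 0.0479 in edgeR). GBP2 was at a log2 CPM of 2.30 in Hyperloaded replicate 3, where the nearest was at 3.21, a gap of 0.713 of the range. Both libraries are among those without deposited raw data.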

How the results depend on the processing

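IRF1 and IFIT5 kept their direction and their call in all 12 fits that left out 1 library and in all 10 other alternatives fitted across genes. The number of genes called among all genes was 2426, 3652 with limma voom and 167 without Hyperloaded replicates 2, 3 and 6, and leaving out 1 library gave 1250 (Control replicate 2) to 3257 (Hyperloaded replicate 5), with other low counts of 1371 (Control replicate 4 omitted), 1479 (Control replicate 3 omitted) and 1324 (Hyperloaded replicate 6 omitted). Members called numbered 6, 2 without Hyperloaded replicates 2, 3 and 6, and 2 to 9 with 1 library left out. Type I targets called numbered 2, 4 with DESeq2, 4 with limma voom, 4 without the libraries that lack raw data and 1 without Hyperloaded replicates 2, 3 and 6, and 1 to 5 with 1 library left out. The share of all genes called higher was 14.9% with DESeq2, 14.5% with limma voom, 7.77% without the libraries that lack raw data, 1.0% without Hyperloaded replicates 2, 3 and 6, and 5.74 to 13.8% with 1 library left out. Gamma targets called numbered 2, 1 without Hyperloaded replicates 2, 3 and 6, and 1 to 2 with 1 library left out. Transcription factors called numbered 2, 1 with upper quartile factors, 1 with no count minimum, 0 without Hyperloaded replicates 2, 3 and 6, and 0 to 2 with 1 library left out. Fewer libraries entered the reduced fits, and for the other changes the cause was not tested. Library size alone as the scaling moved the median log2 fold-change of all genes to 0.28, with 85.8% of calls higher, against 56.1% with TMM and 44.3% with upper quartile factors.

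Members near 0 changed sign. On the log2 scale IFIT1 was at -0.045 with upper quartile factors, -0.014 with the replicate block, -0.054 with limma voom and -0.41 without Hyperloaded replicates 2, 3 and 6, where IFIT2 was at -0.22. CMPK2 was at 0.13 with library size alone and 0.18 without the libraries that lack raw data. PSME2 was at 0.0053 with DESeq2 size factors, 0.28 with library size alone, 0.0080 with DESeq2, 0.054 with limma voom and 0.068 without the libraries that lack raw data. PSMB9 was at 0.24 with library size alone, 0.025 with the replicate block, 0.057 with limma voom and 0.10 without Hyperloaded replicates 2, 3 and 6. IRF2 was at 0.0098 with DESeq2 size factors, 0.29 with library size alone, 0.012 with DESeq2, 0.010 with limma voom and 0.019 without the libraries that lack raw data. With 1 library left out, IFIT1 ran from -0.21 to 0.18, RSAD2 from -0.055 to 0.39, PSME2 from -0.089 to 0.060, PSMB9 from -0.16 to 0.13 and IRF2 from -0.064 to 0.058. None of these passed the test.

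The replicate numbers did not pair the samples, since Control and Hyperloaded libraries came from different pigs. Same-numbered libraries correlated at -0.12 to 0.26 in their deviations from the group means. For replicates 3, 5 and 6 the same-numbered library was the best match. With the replicate block, 1744 genes and 6 members were called, and the log2 ratio of IRF1 to IRF2 kept its value of 1.83 at an adjusted p of 0.0625, where the exact paired permutation test cannot give an unadjusted p under 0.0312. Of 5 ratios planned, 3 were not run because PSMB5, PSMB6 or PSMB10 matched no gene. Depth limits PSMB8, PSMB9, GBP1 and OASL, and changes under 2-fold were often missed in the simulation.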
